A study of Oryctolagus cuniculus with 16 samples.

Results

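The genes described here are the interferon-stimulated genes of the rabbit basilar artery wall. They were chosen by gene symbol alone: symbols beginning with IFI, ISG, OAS or SAMD9, the numbered MX, GBP, IRF and STAT genes, and RSAD2, DDX58, USP18, XAF1, PARP9, PARP14, DTX3L, CXCL10 and CXCL11. The rule matched 36 symbols in the count table. ISG20 had no count in any library, which left 35 members of the 11925 symbols with a count. Other classical interferon-stimulated genes such as MX1, OAS1, IFIT1 and USP18 match the rule but had no row under these symbols in the count table. They were therefore not analysed here. The animals were 4 female New Zealand white rabbits. In rabbits 5 and 6 both common carotid arteries were ligated, which raises flow in the basilar artery (BA), and rabbits 3 and 4 had a sham operation. Intima and media were cut apart by laser microdissection 24 h later, in the straight BA and at the basilar terminus (BT), the bifurcation at its end. Every rabbit gave 4 libraries, 16 in all, and each tissue thus held 2 ligated and 2 sham rabbits of 1 breed and sex.

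Interferons are secreted proteins that bind receptors on the cell surface, and the receptor-bound JAK kinases then phosphorylate STAT proteins. The activated STAT proteins, with or without the partner IRF9, enter the nucleus and switch on genes whose products block viral replication, modify proteins, sense foreign nucleic acid or attract lymphocytes. Endothelial and smooth muscle cells both carry the receptors, and macrophages and other cells of the vessel wall and its coverings also express many of these genes at rest.

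The intimal libraries held 5211886 to 17686105 counts assigned to a gene symbol, and the medial ones 2154863 to 11219236. Levels are given as CPM, the counts of a gene relative to the TMM-scaled size of its library. A count of 0 allows up to 3 counts at 95% confidence, which was 0.169 to 1.58 CPM depending on the library and covers counting error only. The endothelial markers PECAM1, CDH5 and VWF were higher in the intima, and MYH11, DES and ACTA2 of smooth muscle cells in the media, but the intimal libraries also held smooth muscle transcripts, with ACTA2 at 10255 to 71630 CPM. Since these are bulk samples, fewer cells of a type and less RNA per cell cannot be told apart. The p-values given measure the spread between 2 rabbits per group.

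Of the 35 members, 15 had a count in all 16 libraries and 30 averaged above 1 CPM. IRF4 was the rarest, with a count in 3 libraries and at most 0.203 CPM. At the top of the pathway, the interferon genes examined that had a row in the count table were IFNB1, IFNG, IFNK and IFNL1. No library held a count for any of them, and other interferon genes were not analysed here. The receptor subunit IFNAR1 was present in every library, at 89.6 to 529 CPM, as was IFNGR1, at 106 to 321 CPM.

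**Figure D1:**
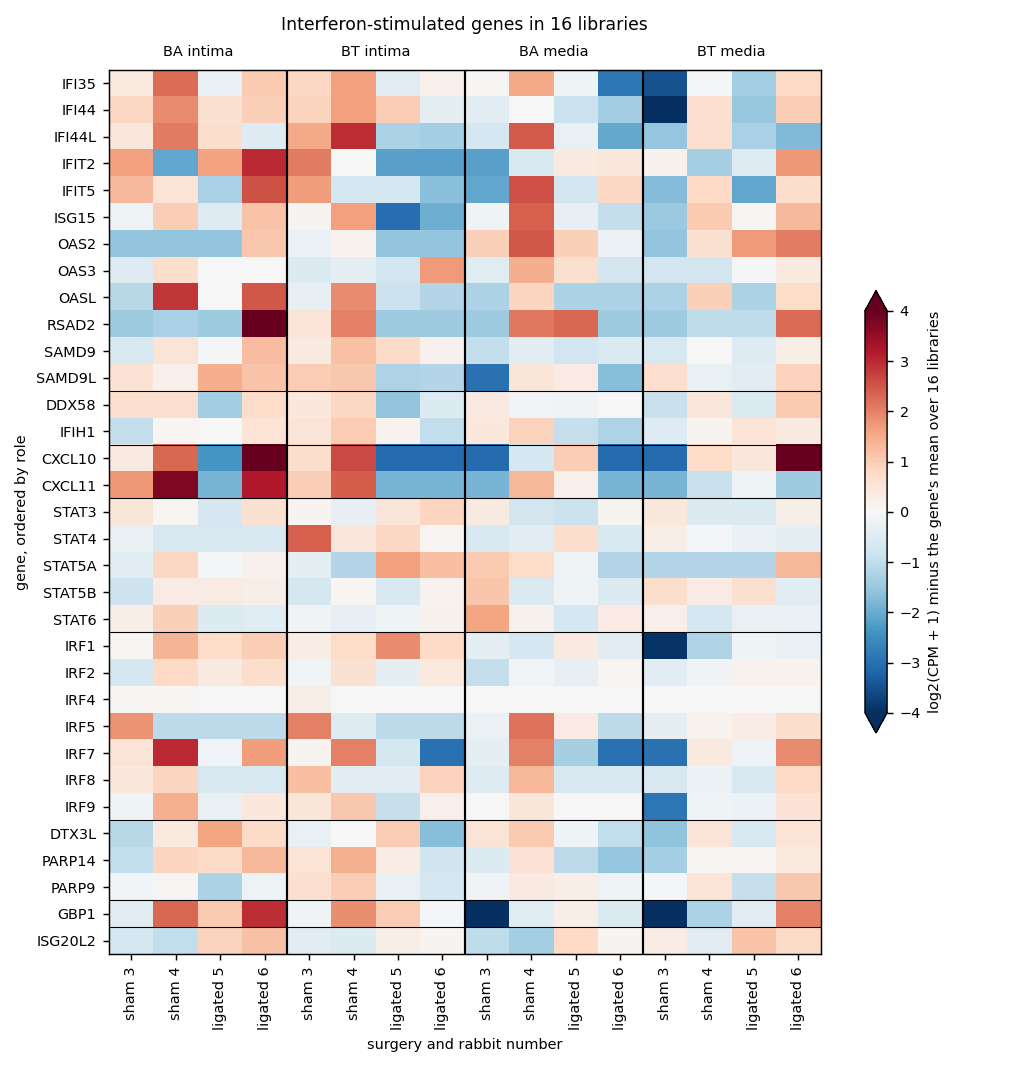
Each row is 1 of 33 members, ordered by role, and each column is 1 library, grouped by tissue with sham rabbits 3 and 4 left of ligated rabbits 5 and 6. The colour is log2(CPM + 1) minus the gene's mean over the 16 libraries, cut off at 4 on either side. Many rows are blue in both ligated columns of the BT intima, and the columns of sham rabbit 4 are mostly red in the BA intima, BT intima and BA media.

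In the BT intima, 8 of the 12 antiviral effectors tested and both chemokines were lower in both ligated rabbits than in both sham rabbits. Of all 9273 genes tested there, 25.6% were lower in this way. The other effectors, SAMD9, IFI44, IFIT5 and OAS3, overlapped between the groups. ISG15, a ubiquitin-like protein that is attached to other proteins, stood at 186 and 535 CPM in sham rabbits 3 and 4 and at 19.9 and 43.6 CPM in ligated rabbits 5 and 6. IFI44L, an antiviral gene of little known function, held 71.8 and 199 CPM in the sham rabbits and 9.59 and 9.06 CPM in the ligated rabbits. For both genes the groups were far apart, and the sham rabbits differed from each other by more than the ligated rabbits did. SAMD9L, a restriction factor of poxviruses and an antiproliferative protein, was at 48.6 and 50.7 CPM against 9.50 and 9.80 CPM, with rabbits of a group close together. The fitted log2 change was -3.85 for IFI44L (SE 0.65), -3.51 for ISG15 (SE 0.70) and -2.36 for SAMD9L (SE 0.55). None of these passed after adjustment (edgeR quasi-likelihood test with Benjamini-Hochberg adjustment, q = 0.247 for IFI44L, 0.256 for ISG15 and 0.265 for SAMD9L).

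In the BT intima the chemokines were detected in the sham rabbits but not in the ligated rabbits. CXCL10, which attracts activated T cells through the receptor CXCR3, was at 12.8 and 52.3 CPM in the sham rabbits, from 189 and 357 counts, and had no count in either ligated rabbit. CXCL11, a ligand of the same receptor, was at 6.09 and 18.4 CPM in the sham rabbits and also had no count in the ligated ones. Against the 3 counts per library that a count of 0 allows, CXCL10 was at least 128-fold and CXCL11 at least 48.5-fold lower in the ligated rabbits. Another pair of effectors followed this on-off pattern. IFIT2, which binds viral RNA and restrains translation, was at 17.9 and 3.51 CPM in the sham rabbits and at 0 in both ligated rabbits, at least 42.2-fold lower. RSAD2 (viperin), an enzyme that makes a chain-terminating nucleotide, was at 2.77 and 9.66 CPM and then at 0, at least 24.6-fold lower.

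**Figure D2:**
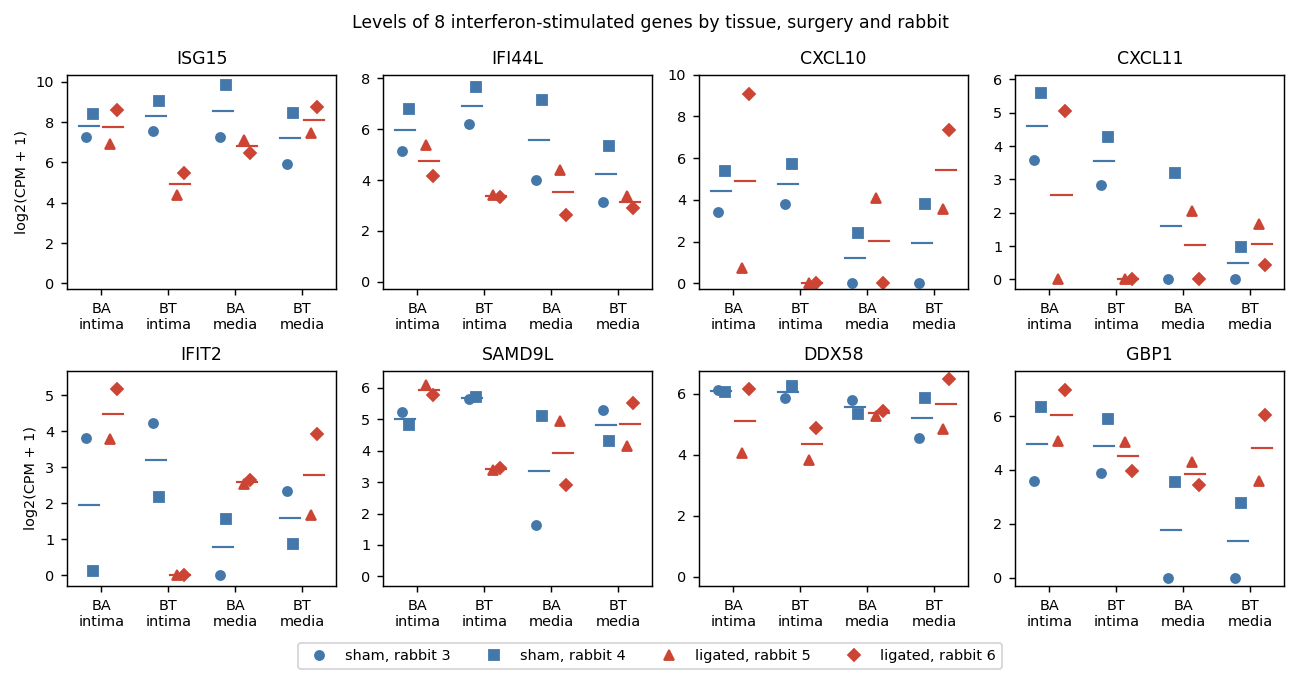
Each panel is 1 gene, with log2(CPM + 1) on the y axis and the 4 tissues on the x axis. Each symbol is the library of 1 rabbit, blue for sham and red for ligated, and the short lines are the means of 2 rabbits. In the BT intima both ligated symbols lie below both sham symbols for 7 of these 8 genes, all but GBP1, and at 0 for CXCL10, CXCL11 and IFIT2. The 8 genes were chosen with these results known, so their count is not to be set against a share. Of all 33 members tested in that tissue, 18 (54.5%) were lower in this way, and of all genes 25.6%.

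Across all members tested in the BT intima, 26 of 33 had a lower fitted level in the ligated rabbits, and the median log2 change was -1.39, against -0.13 over all 9273 genes tested. The median was the same with the 6 genes that had no count in the ligated rabbits set at their bounds. Both ligated rabbits lay below both sham rabbits for 18 members (54.5%), while 25.6% of all genes tested did so. At an unadjusted p below 0.05, 9 members (27.3%) were lower and 0 were higher, and over all genes 7.33% were lower and 4.3% higher. These 9 were ISG15, IFI44L, SAMD9L, CXCL10, CXCL11, IFIT2, RSAD2, DDX58 and IRF5. No member passed a q-value of 0.05 in edgeR, nor did any other gene (0% called), and DESeq2 called 7 members at an adjusted p below 0.05, all lower, where it called 6.61% of all genes tested. The 7 were the 9 without DDX58 and IRF5. The study's own edgeR run on this tissue, with its RPKM filter, did call genes at a q-value below 0.05. Among those it reported lower were CXCL10, CXCL11, ISG15 and SAMD9L, and the reason for the difference was not tested. Leaving out 1 rabbit leaves 1 rabbit in its group, so counts from such fits are not given.

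Among the sensors and signalling genes of the BT intima, DDX58 (RIG-I), a sensor of viral RNA in the cytoplasm, was at 56.5 and 75 CPM in the sham rabbits and 13.3 and 28.7 CPM after ligation, with a log2 change of -1.65 (SE 0.58, q = 0.367, edgeR). IFIH1 (MDA5), which senses long double-stranded RNA, was at 43.1 and 61.0 CPM against 33.0 and 14.6 CPM. For these sensors the groups did not overlap, although IFIH1 did not reach an unadjusted p of 0.05. IRF9, the DNA-binding partner of STAT proteins, was at 81.1 and 124 CPM against 30.6 and 67.5 CPM. IRF7, which induces interferon genes, was at 7.51 and 30.7 CPM against 3.89 and 0 CPM. IRF5, an inflammatory regulator of myeloid cells, was at 7.31 CPM in sham rabbit 3 and 0.439 CPM in sham rabbit 4, with no count in the ligated rabbits, so that its bound of 15.3-fold rested on rabbit 3.

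Of the members that were higher in both ligated rabbits, the following were chosen after their values were seen. STAT3, the factor downstream of interleukin-6, was at 37.0 and 26.9 CPM in the sham rabbits and 48.9 and 63.3 CPM in the ligated rabbits. STAT5A, used by growth factors and interleukin-2, was at 0.744 and 0 CPM against 6.05 and 4.20 CPM. IRF1, induced by interferon-gamma and by inflammatory cytokines, was at 17.8 and 24.4 CPM against 55.4 and 25.4 CPM. In all 3 genes the ligated rabbits were the higher ones, without overlap but also without an unadjusted p below 0.05. STAT4 overlapped, at 7.17 and 1.17 CPM against 1.81 and 0.659 CPM. GBP1, a large GTPase that coats intracellular bacteria and restrains endothelial growth, overlapped between the groups, at 13.9 and 58.3 CPM against 31.9 and 14.7 CPM. Within the PARP9 group, PARP9 (21.7 and 27.5 against 10.8 and 7.82 CPM) and PARP14 (32.7 and 59.7 against 27.3 and 12.3 CPM) were lower without overlap in the ligated rabbits, whereas DTX3L, the ubiquitin ligase that pairs with PARP9, overlapped at 14.4 and 18.3 against 37.3 and 4.78 CPM.

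Macrophage and leptomeningeal transcripts also differed between the groups of the BT intima, and their part in the result was not tested. The 8 macrophage markers summed to 759 and 132 CPM in sham rabbits 3 and 4 and to 121 and 55.3 CPM in ligated rabbits 5 and 6. Of these markers, 7 were at 0 in rabbit 5 and 4 in rabbit 6, and nearly all of the remainder was CD14, at 54.7 to 121 CPM in the 4 libraries. The complement gene C1QC was at 205 and 11.3 CPM in the sham rabbits and at 0 and 0.494 CPM in the ligated rabbits. Among the sham rabbits, rabbit 3 held more of C1QA, C1QC, TYROBP and MRC1. Of the members, IFIT2, IRF5, IFIT5 and STAT4 were likewise higher in rabbit 3, with IFIT5 at 12.7 and 1.61 CPM, while ISG15, IFI44L, CXCL10 and CXCL11 were higher in rabbit 4. The 6 leptomeningeal and fibroblast markers summed to 3136 and 1021 CPM in the sham rabbits and 4.32 and 48.2 CPM in the ligated ones, and the endothelial markers to 650.5 and 3089 CPM against 1135 and 1368 CPM.

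Other genes of the interferon pathway, from lists that did not use the membership rule, gave a mixed picture in the BT intima, and 0 of them passed a q-value of 0.05. The small counts per list stand beside 7.33% of all genes lower and 4.3% higher at an unadjusted p below 0.05 in this tissue. Of 5 nucleic acid sensing genes tested, 2 were lower at an unadjusted p below 0.05. They were DHX58 (LGP2), at 10.1 and 29.1 CPM in the sham rabbits and 0.173 and 0.823 CPM in the ligated rabbits, and TLR3, at 65.8 and 88.6 against 27.4 and 8.15 CPM. Of 15 other interferon-responsive genes, 2 were lower and 2 higher at that p. The death ligand TNFSF10 was lower, at 171 and 446 against 47.4 and 92.6 CPM, and so was CD274. The aminopeptidase LAP3 was higher, at 217 and 233 against 619 and 437 CPM, as was the tryptophanyl-tRNA synthetase WARS. Among 8 receptor and kinase genes, JAK2 was higher, at 11.9 and 61.5 against 163 and 132 CPM, and the remainder did not reach that p. Of 10 genes of antigen processing, 2 were lower at that p and 0 higher, CD74, at 335 and 19.9 against 0 and 0.247 CPM, and the proteasome subunit PSMB10, while the 10 genes summed to 6506 and 8829 CPM in the sham rabbits and 13700 and 10660 CPM in the ligated ones. Of 5 negative regulators of interferon signalling tested, 1 was lower, the phosphatase PTPN6.

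**Figure D3:**
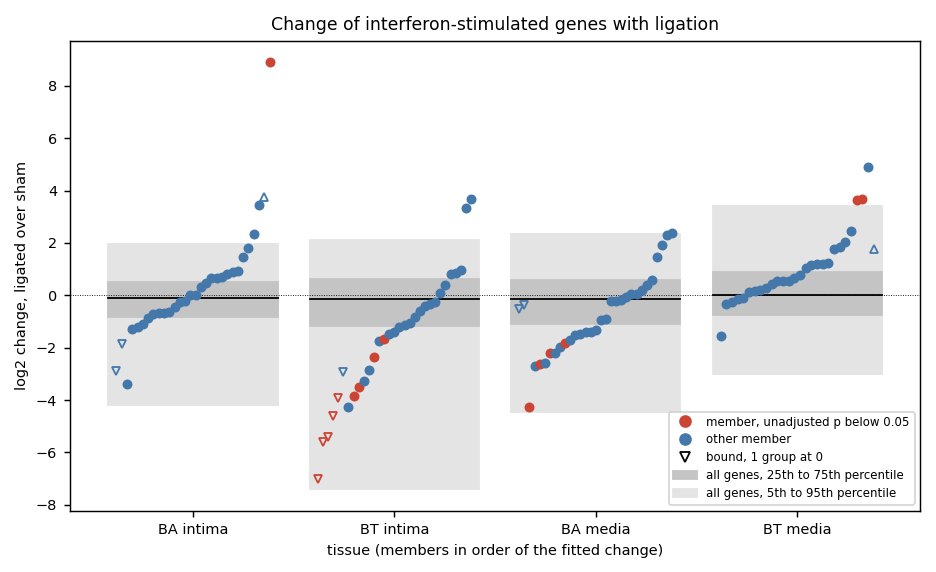
Each point is 1 of the 33 members drawn where it was tested, with the fitted log2 change of ligated over sham on the y axis, in 4 tissues, against the spread of all genes tested in grey. Red marks an unadjusted p below 0.05, and an open triangle is a bound for a gene with no count in 1 group. RSAD2, at the top of the BA intima, rests on 1 count in the sham rabbits. The members lie mostly below 0 in the BT intima and the BA media, and mostly above 0 in the BT media.

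In the BA intima, upstream on the same artery, the members showed no common direction. ISG15 was at 150 and 340 CPM in the sham rabbits and 119 and 380 CPM in the ligated rabbits, so the groups spanned the same range. CXCL10 was at 9.81 and 40.4 CPM in the sham rabbits, and at 0.639 and 547 CPM in ligated rabbits 5 and 6. RSAD2 had no count in sham rabbit 3 and 1 in rabbit 4, and was at 0 CPM in ligated rabbit 5 and 42.9 CPM in rabbit 6. Both therefore rested on rabbit 6, which also held the highest levels of GBP1 (125 CPM), SAMD9 (106 CPM) and IFIT2 (34.7 CPM) of all 16 libraries. IFIT2 was at 13.1 and 0.0747 CPM in the sham rabbits and 12.8 CPM in rabbit 5. DTX3L was at 7.72 and 23.6 CPM against 55.0 and 31.5 CPM, a log2 change of 1.48 (SE 0.75, q = 0.861, edgeR).

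Over the 32 members tested in the BA intima, 16 were higher and 16 lower, with a median log2 change of -0.09 against -0.10 over all 8974 genes tested. With no adjustment, at a p below 0.05, 1 member was higher (RSAD2) and 1 lower, where 2.52% of all genes were higher and 3.43% lower. No member and no other gene passed a q-value of 0.05 (0% called), and DESeq2 called 1 member and 1.31% of all genes tested. Without rabbit 3 the fitted log2 change of CXCL10 was 2.77, and without rabbit 4 it was 4.76. Both fits kept rabbit 6, which held nearly all of its ligated level. The leptomeningeal and fibroblast markers differed within each group of the BA intima, at 2252 and 22.9 CPM in sham rabbits 3 and 4 and at 1960 and 20.2 CPM in ligated rabbits 5 and 6.

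Whether ligation acted differently at the BT than in the BA was tested within the intima, with rabbit as a block, since both locations came from the same animals. It used the libraries of the preceding comparisons again. ISG15 at the BT was 1.24 and 1.57 times its level in the BA in sham rabbits 3 and 4, and 0.167 and 0.115 times in ligated rabbits 5 and 6. For SAMD9L the ratios were 1.35 and 1.87 in the sham rabbits and 0.142 and 0.182 in the ligated rabbits. PARP14, an ADP-ribosyltransferase that acts on STAT signalling, had ratios of 3.07 and 1.48 against 0.722 and 0.223. In each of these genes the BT lay above the BA in both sham rabbits and below it in both ligated rabbits. The fitted difference of log2 changes, BT minus BA, was -3.36 for ISG15 (SE 0.46, q = 0.272), -3.32 for SAMD9L (SE 0.70, q = 0.937) and -2.43 for PARP14 (SE 0.90, q = 1), by the edgeR quasi-likelihood test. CXCL10 came nearest to the threshold (q = 0.0576, edgeR). It had no count in either ligated BT intima, so no fold is given, and most of its ligated BA value came from rabbit 6.

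Of 34 members tested for this difference in the intima, 26 had a negative one, and the median was -1.24 against -0.07 over all 9641 genes tested. At an unadjusted p below 0.05, 8 members (23.5%) were lower and 0 higher, where 2.35% of all genes were lower and 1.09% higher. The within-rabbit ratio of both ligated rabbits lay below that of both sham rabbits for 14 members (41.2%), and for 16.9% of all genes. No gene passed a q-value of 0.05 in edgeR (0% called). DESeq2 called 4 members, ISG15, SAMD9L, IFIT2 and RSAD2, all negative, and 0.612% of all genes. The result depended on rabbit 6, without which the median was -0.20, in a fit with 1 ligated rabbit. Of the macrophage markers tested, 6 of 7 had a negative difference and 4 were lower at an unadjusted p below 0.05, with a median of -6.36, and of the leptomeningeal and fibroblast markers 5 of 6 were negative, with a median of -4.39. Their part in the members' differences was not tested.

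In the media the pattern across locations was the other way round. In the BA media, the sensor IFIH1 was lower in both ligated rabbits. It was at 40.1 and 56.9 CPM in sham rabbits 3 and 4 and at 15.3 and 12.1 CPM in ligated rabbits 5 and 6. The groups did not overlap, and the log2 change was -1.81 (SE 0.58, q = 0.226, edgeR). ISG15 was at 153 and 897 CPM in the sham rabbits and 137 and 88.1 CPM after ligation, with a log2 change of -2.20 (SE 0.71, q = 0.226), in which sham rabbit 3 lay close to the ligated rabbits. IRF7 was at 5.18 and 30.9 CPM against 2.11 and 0 CPM, and IFI44L at 14.8 and 139 CPM against 20 and 5.24 CPM, again with the high value in rabbit 4. DDX58 and IRF9 overlapped, DDX58 at 54.5 and 39.1 against 38 and 42.5 CPM and IRF9 at 57.3 and 81.5 against 59.1 and 59.2 CPM. Of the 33 members tested, 24 were lower, with a median log2 change of -1.40 against -0.15 over all 8800 genes, or -0.96 with the 3 members at 0 in the ligated rabbits set at their bounds.

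With no adjustment, at a p below 0.05, 5 members (15.2%) were lower and 0 higher in the BA media, where 6.98% of all genes were lower and 6.62% higher. Both ligated rabbits lay below both sham rabbits for 11 members (33.3%) and for 26% of all genes. No member passed a q-value of 0.05, while 0.807% of all genes did, and DESeq2 called 2 members, ISG15 among them, both lower, with 5.6% of all genes called. The result depended on rabbit 4, without which the median was -0.34, in a fit with 1 sham rabbit. Fibroblast transcripts were lower in the same libraries: the 6 leptomeningeal and fibroblast markers summed to 8839 and 5171 CPM in the sham rabbits and 2207 and 1737 CPM in the ligated ones, and the 8 macrophage markers to 259 and 181 against 149 and 52.9 CPM. The 5 brain parenchymal markers summed to 1672 CPM in sham rabbit 4, which held the highest ISG15, IFI44L and IRF7 of this tissue, and to 49.9, 48.5 and 0.786 CPM in rabbits 3, 5 and 6. Their part in the result was not tested. Of 8 antigen presentation genes tested, CD74, the invariant chain of MHC class II, fell by 3.23 on the log2 scale (SE 0.50, q = 0.0359, edgeR), from 171 and 186 CPM to 26.4 and 12.1 CPM.

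In the BT media, GBP1 and CXCL10 were the members with the smallest p-values, and both were higher after ligation. GBP1 was at 0 and 5.81 CPM in sham rabbits 3 and 4 and at 10.9 and 64.9 CPM in ligated rabbits 5 and 6, without overlap (log2 change 3.63, SE 1.25, q = 0.175, edgeR). CXCL10 was at 0 and 13.1 CPM against 10.6 and 162 CPM (log2 change 3.67, SE 1.31, q = 0.189, edgeR), and here ligated rabbit 5 lay below sham rabbit 4. RSAD2 was at 0 and 0.323 CPM against 0.312 and 11.9 CPM. The high values of all 3 genes came from rabbit 6. ISG15 overlapped between the groups, at 60.4 and 352 CPM against 175 and 424 CPM. IFIH1 was slightly higher in both ligated rabbits, at 20.3 and 32.3 CPM against 43.6 and 38.8 CPM.

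Of 29 members tested in the BT media, 23 were higher in the ligated rabbits, with a median log2 change of 0.65 against 0.03 over all 8783 genes. At an unadjusted p below 0.05, 2 members (6.9%) were higher and 0 lower, and 7.96% of all genes were higher and 7.99% lower, so the count was near the background. The same holds for the 8 members (27.6%) that were higher without overlap, since 25.4% of all genes were. Here too 0 members passed a q-value of 0.05, while 2.35% of all genes did. DESeq2 called 0 members and 6.68% of all genes. The result depended on single rabbits. Leaving out a rabbit leaves 1 rabbit in its group, which is then assumed to vary like the rabbits of the other group. Without rabbit 4 the median log2 change of the members was 1.90, and without rabbit 6 it was -0.13. In the sham rabbits of this tissue, rabbit 3 had no count for several members that rabbit 4 expressed, among them IFI44, at 0 and 46.5 CPM, and IRF7, at 0 and 9.36 CPM.

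ISG15 was the single member to pass a q-value of 0.05 in the edgeR test in any comparison, and it did so in the difference between the locations of the media. Its level at the BT was 0.394 and 0.392 times that in the BA in sham rabbits 3 and 4, and 1.28 and 4.81 times in ligated rabbits 5 and 6. The sham rabbits were thus alike in this ratio although their ISG15 levels differed several-fold, and both ligated rabbits had the higher level at the BT. The ligation effect on the log2 scale was greater at the BT than in the BA by 2.65 (SE 0.47, q = 0.00379, edgeR quasi-likelihood test with rabbit as a block). The call was lost without rabbit 6, with a difference of 1.69 (q = 0.152), and it was lost without the replicate block, with 2.75 (q = 0.732), and in edgeR's version 4 form, with 2.66 (q = 0.459).

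Other members differed in the same direction in the media. IFIH1 at the BT was 0.508 and 0.567 times its BA level in the sham rabbits and 2.85 and 3.22 times in the ligated rabbits, a difference of 2.49 on the log2 scale (SE 0.79, q = 0.193, edgeR). The ratios of PARP14 were 0.533 and 0.685 against 2.33 and 4.22. In these genes, as in ISG15, both ligated rabbits lay above both sham rabbits. Of 33 members tested, 27 had a positive difference, with a median of 2.02 against 0.12 over all 9368 genes. With no adjustment, at a p below 0.05, 8 members (24.2%) were higher and 0 lower, where 4.13% of all genes were higher and 4.94% lower. Among them were ISG15, IRF7, IFIH1, IRF9, OAS2, PARP14 and IFI35. The ratio was higher in both ligated rabbits for 14 members (42.4%) and for 23.1% of all genes. Past a q-value of 0.05 stood 1 member and 0.502% of all genes, and DESeq2 called ISG15 and IRF7 with 1.45% of all genes. Without rabbit 6 the median was 0.95, in a fit with 1 ligated rabbit.

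Genes of other cell types passed the same test in the media beside ISG15. CD74 differed by 3.39 on the log2 scale (SE 0.72, q = 0.0232), and the fibroblast matrix genes DCN by 1.61 (SE 0.35, q = 0.0256) and LUM by 1.64 (SE 0.37, q = 0.035), all by edgeR and in the direction of ISG15. The smooth muscle gene ACTA2 passed in the opposite direction, at -0.76 (SE 0.18, q = 0.0497, edgeR), and the leptomeningeal marker SLC6A13 was lower at an unadjusted p below 0.05. The summed fibroblast markers at the BT were 2515 and 2655 CPM in the sham rabbits and 1587 and 2980 CPM in the ligated rabbits, beside the BA values given above. Macrophage markers at the BT summed to 54.9 and 61.9 CPM in the sham rabbits and 82.6 and 131 CPM in the ligated rabbits. Their part in the result for ISG15 was not tested.

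**Figure D4:**
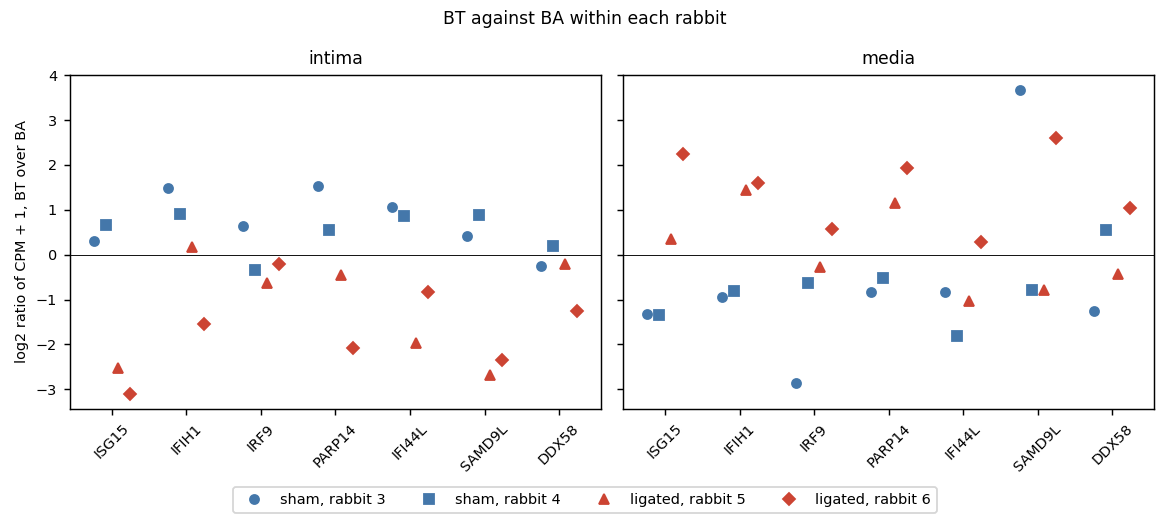
Each symbol is 1 rabbit, and the y axis is the log2 ratio of CPM + 1 at the BT over that in the BA of the same rabbit, in the intima on the left and the media on the right. Blue is sham and red is ligated. For ISG15 the ligated rabbits lie below the sham rabbits in the intima and above them in the media, and PARP14 and IFIH1 show the same crossing.

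Rabbits of the same group differed strongly in these genes. Sham rabbit 4 exceeded sham rabbit 3 for 22 of 30 members in the BA intima, 22 of 31 in the BT intima, 25 of 32 in the BA media and 20 of 25 in the BT media, among members averaging above 1 CPM over the pair. Over all genes the share in which rabbit 4 was higher ran from 47.6% to 51.6%. The summed level of the members was 1540, 1770, 1760 and 967 CPM in these tissues of rabbit 4 and 717, 977, 612 and 373 CPM in rabbit 3. The most abundant members weigh most in these sums, and ISG15 alone was 897 CPM of the 1760 CPM. The endothelial markers were also higher in rabbit 4 than in rabbit 3 in each tissue, for example 2761 against 872 CPM in the BA intima and 782 against 32.0 CPM in the BT media, and the part of this in the members' levels was not tested.

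The ligated rabbits did not keep 1 order. Rabbit 6 exceeded rabbit 5 for 24 of 28 members in the BA intima and 23 of 29 in the BT media, but for 10 of 24 in the BT intima and 7 of 26 in the BA media. The summed levels in rabbit 6 were 2020 CPM in the BA intima and 1410 CPM in the BT media, and 520 CPM in the BT intima and 432 CPM in the BA media. In rabbit 6 both the BA intima and the BT media lay above both other libraries for 20 of 30 members, and for 12.1% of all genes. This arrangement was defined on the values of rabbit 6. It held for 1 member in rabbit 3, 1 in rabbit 4 and 4 in rabbit 5, and for 14.2%, 10.6% and 13.3% of all genes. The opposite arrangement held for 7, 6, 2 and 0 members in rabbits 3 to 6, and for 16.2%, 10.4%, 12.9% and 10.7% of all genes. Rabbit 5 had summed levels of 731 and 575 CPM in the intima of the BA and BT and 579 and 622 CPM in the media of the BA and BT, so its libraries were close to each other.

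**Figure D5:**
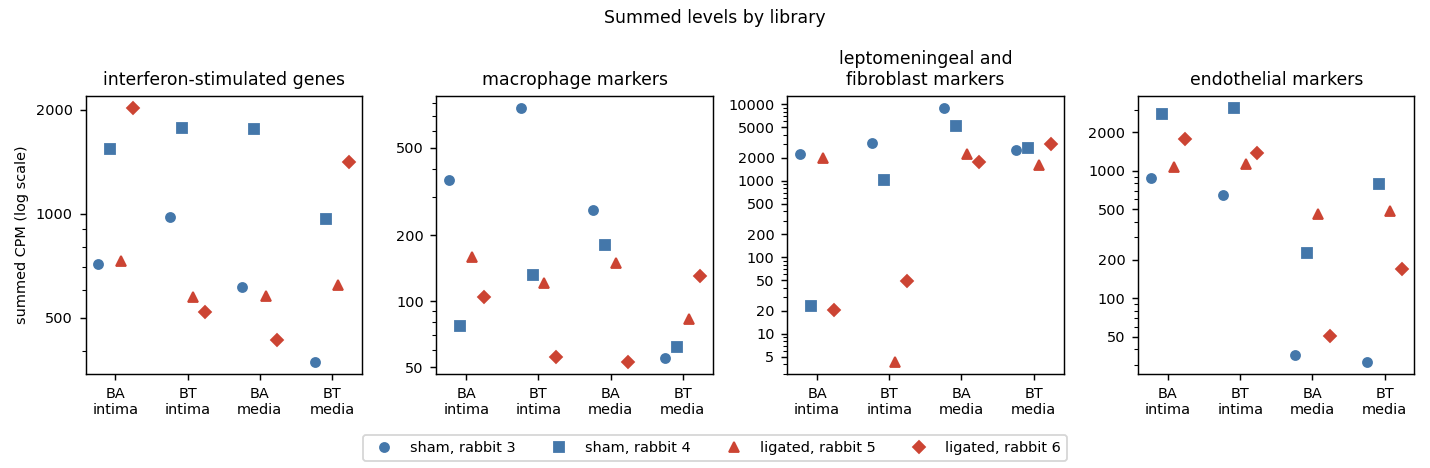
The panels give the summed CPM of the 35 interferon-stimulated genes and of the macrophage, leptomeningeal and fibroblast, and endothelial markers, on log scales, by tissue. Each symbol is 1 library, blue for sham and red for ligated. In the first panel both ligated rabbits lie below both sham rabbits in the BT intima and the BA media, and rabbit 6 holds the highest sum of the BA intima and of the BT media. Abundant members such as ISG15 and CXCL10 weigh most in the sums of that panel.

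The intima was compared with the media of the same rabbit at each location, over 4 rabbits. In the BA, IFI44, an antiviral gene related to IFI44L, was at 53.1, 111, 45.5 and 57.7 CPM in the intima of rabbits 3 to 6 and at 21.6, 29.8, 15.8 and 10.5 CPM in the media. It was higher in the intima of every rabbit, by 1.79 on the log2 scale (SE 0.36, q = 0.0716, edgeR). GBP1 was at 11, 79.8, 32.7 and 125 CPM in the intima and at 0, 10.6, 18.5 and 9.96 CPM in the media, likewise higher in 4 of 4 rabbits (log2 difference 3.24, SE 0.87, q = 0.153, edgeR). SAMD9L was higher in the intima of 3 of 4 rabbits, at 36.1, 27.1, 66.9 and 53.7 CPM against 2.07, 33.4, 29.5 and 6.55 CPM. OAS2, which makes the activator of RNase L, went the other way, at 0, 0, 0 and 5.30 CPM in the intima and 4.81, 15.9, 4.75 and 1.57 CPM in the media.

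At the BT, IRF1 was higher in the intima of every rabbit, at 17.8, 24.4, 55.4 and 25.4 CPM against 0, 5.65, 12.5 and 11.3 CPM in the media (log2 difference 2.55, SE 0.90, q = 0.233, edgeR). IFI44L was also higher in the intima of 4 of 4 rabbits, with ratios of 9.15 and 5.10 in the sham rabbits and 1.03 and 1.38 in the ligated rabbits. SAMD9 was higher in 3 rabbits and at a ratio of 0.967 in rabbit 6. ISG15 split by surgery, with ratios of 3.08 and 1.52 in sham rabbits 3 and 4 and 0.113 and 0.103 in ligated rabbits 5 and 6.

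Of 33 members tested in each location, 27 were higher in the intima in the BA and 23 at the BT, with medians of 0.64 and 0.54 against 0.05 and 0.08 over all genes. In the BA, 5 members were higher and 1 lower at an unadjusted p below 0.05, against 6.6% and 5.23% of all genes, and 9 were higher in every rabbit, against 11.3% of all genes. At the BT, 3 members were higher and 0 lower at that p, against 7.35% and 6.46% of all genes, and 3 were higher in every rabbit, against 13.2%. No member passed a q-value of 0.05 in either, where 0.62% of all genes in the BA and 2.1% at the BT did. DESeq2 called IFI44, GBP1 and OAS2 in the BA, with 6.79% of all genes, and IRF1 at the BT, with 10.3%. The median at the BT without rabbit 3 was -0.30. Of 10 genes of antigen processing tested at the BT, 1, the MHC class I light chain B2M, was higher in the intima past the threshold, by 1.55 on the log2 scale (SE 0.24, q = 0.0237, edgeR).

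The BT was compared with the BA of the same layer over both flow groups. In the intima 13 of 34 members were higher at the BT and 21 lower, and in the media 15 of 33 were higher and 18 lower, with medians of -0.23 and -0.02. No member passed a q-value of 0.05 (0.0104% of all genes in the intima and 0.032% in the media did), and DESeq2 called 0 members in either layer, with 0.29% and 0.523% of all genes. At an unadjusted p below 0.05 stood 1 member in the intima, STAT4, beside 352 of all 9641 genes tested, so the count was near the background. In the media 0 members stood at that p, beside 494 of all 9368 genes tested. STAT4, the factor that transmits interleukin-12 in lymphocytes, was at 7.17, 1.17, 1.81 and 0.659 CPM in the BT intima of rabbits 3 to 6 and at 0.282, 0, 0 and 0 CPM in the BA intima, from 106, 8, 21 and 8 counts against 5, 0, 0 and 0 counts, so that it was higher at the BT in every rabbit. ISG15 and CXCL11 followed in the intima with q = 1 in edgeR, and in the media IFI44L and CXCL10 were among the members with the smallest p-values (q = 0.963 and 0.999, edgeR).

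The remaining levels of the signalling genes and effectors complete the picture by tissue. In the BA intima of sham rabbits 3 and 4 and ligated rabbits 5 and 6, IRF9 was at 51.3, 157, 47.6 and 78.4 CPM and IRF7 at 10.3, 61.7, 6.39 and 24.3 CPM, each highest in rabbit 4. IFI44L was at 34.0, 108, 40.7 and 16.8 CPM, DDX58 at 68.0, 65.2, 15.4 and 70.3 CPM, and IFIH1 at 14.8, 31.8, 29.3 and 44.3 CPM. None of these separated the flow groups in that tissue. PARP14 was at 10.7, 40.3, 37.8 and 54.9 CPM, PARP9 at 12.2, 14.0, 5.01 and 11.5 CPM, and CXCL11 at 11.1, 47.2, 0 and 32.3 CPM, so that PARP9 was lower in both ligated rabbits and the others overlapped.

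In the media, in the same order of rabbits, IRF9 at the BT was at 6.97, 52.1, 48.9 and 88.0 CPM and IRF7 at 0, 9.36, 5.92 and 28.4 CPM. IFI44 in that tissue was at 0, 46.5, 9.66 and 58.9 CPM and IFI44L at 7.84, 39.0, 9.35 and 6.54 CPM. The flow groups overlapped for each of these genes, with the lowest value in rabbit 3 for IRF9, IRF7 and IFI44. DDX58 was at 22.4, 57.6, 27.7 and 88.3 CPM, SAMD9L at 38.3, 18.9, 16.8 and 45.1 CPM and OAS2 at 0, 3.55, 8.73 and 11.5 CPM. PARP14 was at 7.84, 22.7, 23.4 and 28.7 CPM, PARP9 at 12.8, 19.8, 6.54 and 29.1 CPM and DTX3L at 5.23, 26.3, 11.5 and 26.9 CPM. OAS2 and PARP14 were higher in both ligated rabbits, and the other 4 genes overlapped. IRF1 had no count in the BT media of rabbit 3.

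In the BA media PARP14 was at 14.7, 33.2, 10.0 and 6.81 CPM and DTX3L at 26.9, 38.4, 15.8 and 8.65 CPM, both lower in the ligated rabbits, while PARP9 overlapped at 12, 17.5, 16.4 and 11.5 CPM. IRF1 was at 10.7, 8.51, 18.5 and 10.2 CPM there, CXCL10 at 0, 4.25, 15.8 and 0 CPM and CXCL11 at 0, 8.18, 3.16 and 0 CPM. These 3 genes overlapped between the flow groups. IFIT2 was at 0, 1.96, 4.75 and 5.24 CPM in the BA media and at 4.07, 0.806, 2.18 and 14.0 CPM in the BT media. RSAD2 was at 0, 10.5, 12.1 and 0 CPM in the BA media, where each flow group held 1 rabbit with the transcript and 1 without. In the BT intima IFI44 was at 55.8, 94.7, 61.0 and 22.9 CPM and OAS2 at 1.56, 2.34, 0 and 0 CPM.

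ISG20L2 was the single member whose level in both ligated rabbits lay above that in both sham rabbits in all 4 tissues, which came from the same 4 animals. This was 1 of 29 members tested in all 4 tissues, and 3.68% of the 7930 genes so tested did the same, so the count was near the background. Its product is a nuclease that trims ribosomal RNA and is named for its sequence likeness to ISG20. In sham rabbits 3 and 4 and ligated rabbits 5 and 6 it was at 2.09, 1.57, 8.41 and 10.4 CPM in the BA intima and at 2.71, 2.49, 4.93 and 4.45 CPM in the BT intima. In the media it was at 1.51, 0.981, 7.91 and 4.46 CPM in the BA and at 5.23, 2.74, 10.3 and 7.60 CPM at the BT. It did not reach an unadjusted p of 0.05 in any of these comparisons. Among the other low members, OASL reached at most 16.7 CPM, and STAT6, IRF8, OAS3 and IRF4 reached at most 3.86, 2.94, 4.45 and 0.203 CPM.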

How the data were processed

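RNA was sequenced from laser-microdissected wall layers, intima or media, taken from the BA and from the BT of 4 rabbits, 16 libraries in all. The authors deposited raw counts of reads per gene. Per the study's methods, SMART-Seq v4 cDNA was sequenced as single reads, aligned with STAR to OryCun2.0, and uniquely mapped reads were counted on Ensembl genes. The submitters' processing notes name bcl2fastq 2.20.0.422, FastQC 0.11.5, MultiQC 1.5, SAMtools 1.9 and featureCounts 1.6.2. Counting is stated as reverse-stranded although the cDNA kit does not mark strand, so reads of overlapping antisense genes cannot be told apart. Rows without a symbol, 13.8% to 18.7% of the counts per library, were left out of library sizes and tests, and 22 symbols had been turned into dates. No gene lengths or sequences were used here, so levels are not compared between genes.

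Counts were tested with edgeR 4.0.16 (quasi-likelihood F test in its earlier form, TMM scaling) in R 4.3.3, on genes with a mean above 1 CPM in at least 1 group, in place of the study's RPKM filter. P-values were adjusted by Benjamini-Hochberg over all genes tested in each of 10 comparisons. Flow comparisons had 2 residual degrees of freedom. Comparisons of layers and of locations had rabbit as a block, and the interaction also (2 residual degrees of freedom). The pairing comes from the labels, which name the rabbit of each library. Per comparison, up to 4 members per direction past q = 0.05 were named, otherwise the 3 with the smallest p. Values per library were given for a panel of 19 members, and others by range or where groups did not overlap. Alternatives were DESeq2 1.42.0, other scalings, no filter, other blocks and leaving out each rabbit. The scripts were tested on simulated data with 200 changed genes. The members and gene lists were chosen with earlier results of these data known. Results for some of the members are not reported here, although counts and medians over the members include them.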

Additional observations from a re-analysis of the deposited data

Results flagged for a closer look

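The ligation effect on ISG15 in the media differed between locations, being greater at the BT than in the BA by 2.65 on the log2 scale (SE 0.47, q = 0.00379, edgeR quasi-likelihood test of the interaction with rabbit as a block). The BT level was 0.394 and 0.392 times the BA level in the sham rabbits and 1.28 and 4.81 times in the ligated rabbits. Without rabbit 6 the difference was 1.69 (q = 0.152). The fibroblast genes DCN and LUM and the MHC class II gene CD74 passed the same test in the same direction. The smooth muscle gene ACTA2 passed in the opposite direction, and the leptomeningeal marker SLC6A13 was lower at an unadjusted p below 0.05. The part of these genes in the ISG15 result was not tested.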

How the results depend on the processing

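With 2 rabbits per group, counts of calls past q = 0.05 moved with the method. The study's own edgeR runs called more genes than the fits here in each of the 4 flow comparisons, and the reason was not tested. The edgeR count of members called was 0 in the 4 flow comparisons, both layer comparisons and the intimal interaction, and 1 in the medial interaction. With no filter on low counts the flow comparisons gave 3 for BA intima, 5 for BT intima, 4 for BA media and 2 for BT media, and there were 1 between the layers of the BA, 1 in the intimal interaction and 2 in the medial interaction. With library size scaling it was 1 between the layers of the BA and 1 in the intimal interaction. Shares over all genes are not given for the unfiltered and library-size fits, so these counts do not set the members apart. DESeq2 called 1 member for BA intima, 7 for BT intima and 2 for BA media, 3 and 1 between the layers of the BA and BT, and 4 and 2 in the intimal and medial interactions. Leaving out 1 rabbit in a flow comparison or interaction leaves 1 rabbit in a group, which is assumed to vary like the other group. Counts past q = 0.05 or at an unadjusted p below 0.05 are therefore not given for those fits. The pairing by rabbit mattered for the medial interaction, where the fit without the replicate block called 0 members (ISG15 2.75, q = 0.732), as did edgeR's version 4 form (0 members, ISG15 2.66, q = 0.459). Counts at an unadjusted p below 0.05 were added after seeing the data, and under the alternatives they are given without shares over all genes. In the BT intima 6 to 10 members were lower under every alternative, against 9. In the BA media the count of 5 became 3 in the version 4 form and 0 to 7 with a rabbit left out. The 8 of the intimal interaction became 5 to 16 with a rabbit left out. The 8 of the medial interaction became 5 without the replicate block and 2 to 12 with a rabbit left out. The fitted difference for CXCL11 in the intimal interaction, which rests on libraries at 0, ran from -10.48 to 1.10 with a rabbit left out, the latter without rabbit 6. Other results for single genes kept their direction. The cause of these changes was not tested. The low depth of the medial libraries, down to 2154863 counts, limits the rare members most.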

Other observations

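Among the 30 members averaging above 1 CPM, 7 had their highest level in the BA intima of sham rabbit 4, 6 in the BA intima of ligated rabbit 6 and 5 in the BA media of sham rabbit 4. Over all genes the shares were 6.68%, 4.06% and 7.40%. The median log2 ratio of the members between ligated rabbits 6 and 5 in the intima was 1.16 in the BA and -0.10 at the BT, and in the media -0.59 in the BA and 1.15 at the BT. Between sham rabbits 4 and 3 the ratio was 1.17 in the BA and 0.49 at the BT in the intima, and 1.31 in the BA and 2.13 at the BT in the media. The corresponding medians over all genes lay between -0.07 and 0.10. These are descriptions of 4 animals, with no test.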
